A study of Arabidopsis thaliana with 16 samples.

Results

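The genes described here are the 22 whose symbol, in the platform annotation, begins with a calcium or calmodulin family name followed by a number. The families searched were IQD, CML, CPK, CDPK, CAM, CIPK and CBL. Of 13513 probe sets that name exactly 1 gene, 15 named IQD genes and 7 named CML genes. None named a CPK, CDPK, CAM, CIPK or CBL gene, so calmodulin itself, the calcium-dependent kinases and the CBL-CIPK module were not analysed here. Of the 22746 Arabidopsis probe sets, 8730 had no gene named in this annotation and 503 named several. Genes of any of these families, IQD and CML included, may therefore be on the array without being counted. Each of the 22 genes had 1 probe set. None of these probe set names carries the suffix that marks probes shared between transcripts.

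Calmodulin is a small protein that changes shape when it binds calcium and then docks onto other proteins. IQD proteins, which carry an IQ67 domain, are a plant-specific class of such docking partners, and several members that have been studied sit on microtubules or at the plasma membrane. CML proteins are calmodulin-like calcium sensors with EF-hand calcium-binding motifs, and many CML genes respond quickly to touch, wounding or pathogens.

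RNA came from Arabidopsis seeds of genotype Ws-0 at the heart stage, with no treatment named, from plants 38 to 46 days old grown in continuous light. Siliques were 1.2 to 1.5 cm long, and the embryo proper measured 52 to 85 micrometres. Regions were cut by laser from sections of fixed, paraffin-embedded seeds: whole seeds (2 arrays), the embryo proper (2), the chalazal endosperm (3), the micropylar endosperm (2), the peripheral endosperm (2), the chalazal seed coat (3) and the seed coat (2). The chalazal regions lie at the pole where maternal supply enters, and the micropylar endosperm surrounds the embryo. Each sample of 5 to 6 ng total RNA was amplified, labelled with biotin and hybridised to 1 Affymetrix ATH1 array, 16 in all. In pieces of tissue, fewer expressing cells and less transcript per cell cannot be told apart. The labels name the replicates biological without naming the plants behind each, so the p-values measure the spread between these arrays only.

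Signal is the authors' intensity on a linear scale. Each array also carries 27 control probe sets for Bacillus genes, and their 95th percentile served as that array's background bound. It was 31.1 to 33.5 in the embryo proper and 48.2 to 161 in the other groups, so a weak gene counted as above the bound more readily on embryo arrays. Over all Arabidopsis probe sets, 68.2% to 71.1% were above it in the embryo proper and 44.7% to 64.4% in the chalazal endosperm. The chalazal endosperm arrays stood apart over all tested probe sets: their correlations with arrays of other groups were 0.435 to 0.656, against 0.822 to 0.856 among themselves. Of the markers chosen to check the dissection, 11 were named in the annotation. BBM, PHV and CR4 of 5 embryo markers had their highest mean in the embryo proper, while LHW peaked in the chalazal seed coat and CLV3 in the chalazal endosperm. The endosperm markers AGL62, IKU1 and AGL80 peaked in the chalazal endosperm, and IKU2 was too dim to be tested. The seed coat markers BAN and DFR peaked in the seed coat, at mean log2 signals of 13.10 and 14.61, but DFR also had 11.28 and BAN 8.40 in the peripheral endosperm, above the other endosperm regions. The cre spike-in controls averaged 183837 to 241490 in both chalazal regions, against 80919 to 182951 in the other groups, and their part in the results was not tested.

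IQD genes were above the background more often than CML genes. Above the background bound lay 130 of 240 IQD values (54.2%) and 33 of 112 CML values (29.5%), against 60.5% over all Arabidopsis probe sets. By group, the IQD values above the bound are given here with the share of all Arabidopsis probe sets per array. They were 26 of 30 in the embryo proper (68.2% to 71.1%) and 12 of 45 in the chalazal endosperm (44.7% to 64.4%). The micropylar endosperm had 16 of 30 (62.6% to 64.1%) and the peripheral endosperm 16 of 30 (56.7% to 62.8%). The chalazal part of the seed coat had 23 of 45 (56.5% to 61.9%) and its remainder 18 of 30 (54.8% to 60.5%). Whole seeds had 19 of 30 (65.5% to 66.2%). IQD28 and IQD31 were above it on all 16 arrays, and no CML gene was. Only iqd21 and CML30 were too dim to enter the tests, which left 14 IQD and 6 CML genes among 19475 tested probe sets. iqd21 reached 34.4 on embryo proper replicate 2, the lone array on which it was above the bound, and 3.44 on the other embryo array. CML30, whose protein has been placed in mitochondria, reached 142 on chalazal seed coat replicate 3 and was at or under the bound on the other 15 arrays.

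**Figure D1:**
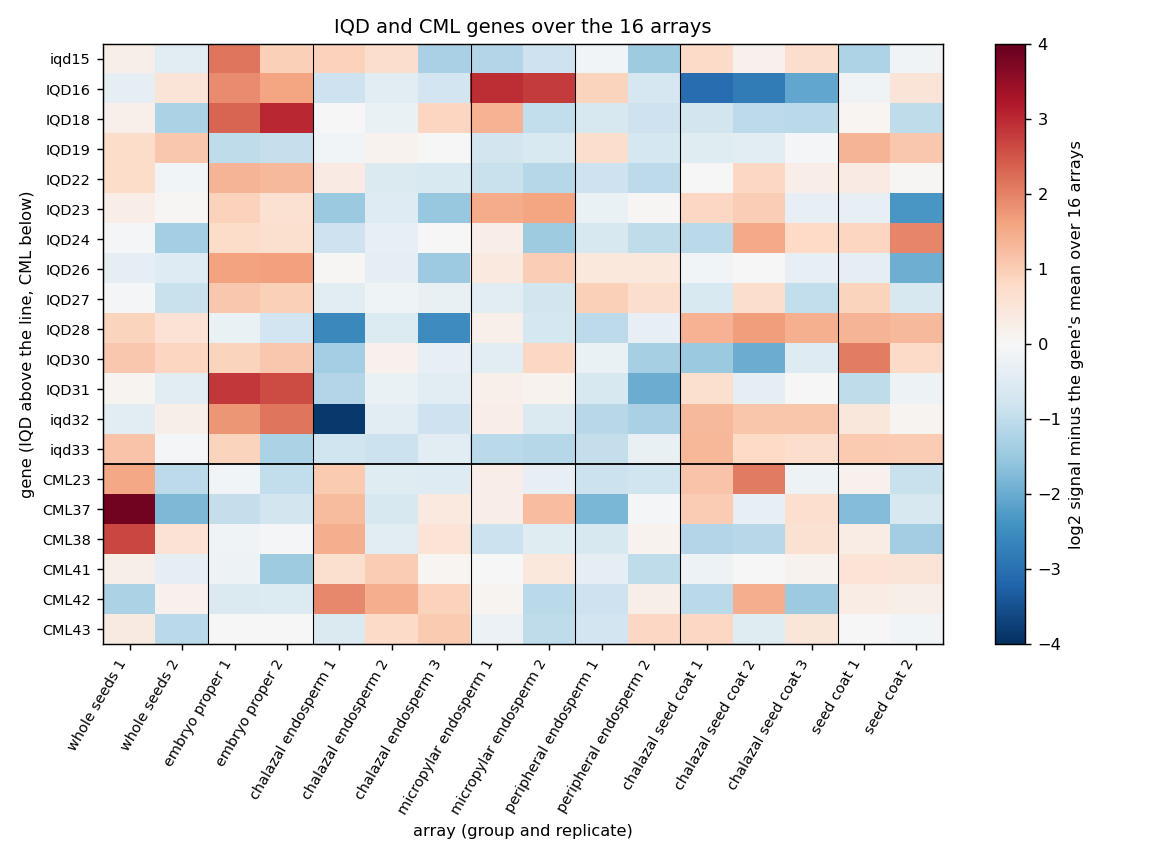
Heat map of the 20 tested genes (rows, IQD above the line and CML below) over the 16 arrays (columns, by group and replicate); the colour is the centred log2 signal minus the gene's mean over all arrays. The embryo proper columns are red for IQD31, iqd32 and IQD18, the chalazal seed coat columns are blue for IQD16, and CML37 is dark red on 1 whole seed array and blue on the other.

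The IQD transcripts varied across the seed and the CML transcripts did not pass the same test. In a linear model over all tested probe sets (limma, moderated F over the 6 compartments, Benjamini-Hochberg adjusted over all of them), 12 of 14 IQD genes passed at 0.05, and 56.6% of all tested probe sets did. None of the 6 CML genes passed. The smallest adjusted p belonged to IQD16 (AT4G10640; 4.02e-08), whose protein binds and bundles microtubules. Next came IQD28 (AT1G14380; adjusted p = 7.71e-06), IQD31 (AT1G74690; adjusted p = 3.31e-05), iqd32 (AT1G19870; adjusted p = 0.000217), IQD18 (AT1G01110; adjusted p = 0.00101) and IQD23 (AT5G62070; adjusted p = 0.00221). IQD24 and IQD27 did not pass. The gap between a gene's highest and lowest compartment mean had a median of 2.76 on the log2 scale in the IQD genes and 1.61 in the CML genes, against 2.13 over all tested probe sets. Within groups the arrays of a CML gene also scattered more: the median SD was 0.93 for CML genes, 0.63 for IQD genes and 0.66 for all tested probe sets. For 9 of the 12 IQD genes the call held whichever single array was left out, and the exceptions were iqd15, IQD19 and IQD22.

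Of the 14 IQD genes, 7 had their highest mean in the embryo proper, where 12.8% of all tested probe sets had theirs. The seed coat held the highest mean of 4 (15.3% of all tested probe sets), the micropylar endosperm of 2 (10%) and the chalazal seed coat of 1 (14.5%). Neither the peripheral endosperm (13.8%) nor the chalazal endosperm (33.4%) held that of any IQD gene. Of the 6 CML genes, 4 had their highest mean in the chalazal endosperm, which was also the top compartment of 33.4% of all tested probe sets. No gene of either family was higher in 1 compartment than in each of the other 5 by the limma test. Of all tested probe sets 8.22% were: 5.67% in the chalazal endosperm, 1.44% in the chalazal seed coat, 1.1% in the seed coat, 0.0103% in the embryo proper and 0% in the other endosperm regions. At an unadjusted one-sided p under 0.05 there were 4 such genes: IQD16 in the micropylar endosperm, IQD18 and IQD31 in the embryo proper, and IQD19 in the seed coat. The share of all tested probe sets at this unadjusted threshold was not counted, so the 4 are no result about the families. None of the 20 was lower in 1 compartment than in each other by limma. Of all tested probe sets 2.09% were lower: 1.96% in the chalazal endosperm, 0.0513% in the chalazal seed coat, and 0.0411% each in the embryo proper and the seed coat. At an unadjusted one-sided p under 0.05 there were 2 of the 20, IQD16 in the chalazal seed coat and IQD28 in the chalazal endosperm. Here too the share of all tested probe sets was not counted. The smallest adjusted p was 0.206 for IQD31 as highest in the embryo proper and 0.175 for IQD16 as lowest in the chalazal seed coat.

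The first comparison asked which calcium genes separate the embryo proper from the endosperm that feeds it. IQD31, iqd32, IQD18, IQD22 and iqd15 were higher in the embryo proper than in the mean of the 3 endosperm regions, and no IQD or CML gene was lower. That is 5 of 14 IQD genes, or 35.7%, where 5.4% of all tested probe sets were higher and 8.35% lower. The median difference was 1.33 on the log2 scale for the IQD genes and -0.52 for the CML genes, against -0.29 for all tested probe sets. The difference was above 0 for 13 of the 14 IQD genes, passing or not, and the exception was IQD19. Every log2 value here is of signal plus an offset, which understates the change of dim genes. Where some arrays of the lower group were at or under the bound, as for IQD18, iqd15 and IQD24, a difference is the model's and no exact size.

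IQD31 was the clearest case. Its signal was 3869 and 3236 in the embryo proper, against 166, 287 and 248 in the chalazal endosperm, 475 and 549 in the micropylar endosperm and 281 and 88.9 in the peripheral endosperm. It was 686, 422 and 539 in the chalazal seed coat, while the remaining coat had 232 and 405 and whole seeds had 627 and 442. Both embryo arrays lay above all other arrays, none of which exceeded 686. The log2 difference from the endosperm mean was 3.30 ± 0.48 (SE; limma, adjusted p = 2.53e-05). Against single regions the model gave 3.33 ± 0.55 over the chalazal endosperm (adjusted p = 2.25e-05), 2.53 ± 0.60 over the micropylar endosperm (adjusted p = 0.0157), and 4.03 ± 0.60 over the peripheral endosperm (adjusted p = 7.24e-05). Over the seed coats it gave 2.62 ± 0.55 for the chalazal part (adjusted p = 0.000594) and 3.31 ± 0.60 for the rest (adjusted p = 0.000175). IQD31 thus passed against each of the 5 other compartments taken singly, although the stricter joint test above gave 0.206.

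iqd32 had its highest mean in the embryo proper and its next highest means in the seed coats. Its signal was 2292 and 2849 in the embryo proper, against 7.65, 316 and 229 in the chalazal endosperm, 618 and 395 in the micropylar endosperm and 248 and 204 in the peripheral endosperm. In the chalazal seed coat it was 1340.5, 1484 and 1487, in the seed coat 851 and 633, and in whole seeds 532 and 913. The embryo values lay above all others, and the chalazal seed coat values above all endosperm values. In single pairs (limma) the embryo proper did not pass against the chalazal seed coat (0.79 ± 0.67, adjusted p = 0.410). Nor did it pass against the seed coat (1.67 ± 0.73, adjusted p = 0.122) or the micropylar endosperm (2.11 ± 0.73, adjusted p = 0.142). It passed against the chalazal endosperm (3.65 ± 0.67, adjusted p = 9.74e-05) and the peripheral endosperm (3.16 ± 0.73, adjusted p = 0.00768). The log2 difference from the endosperm mean was 2.97 ± 0.59 (adjusted p = 0.000875). Chalazal endosperm replicate 1 was under the background bound, so this is the model's difference and no exact size. On that array the 3' over 5' signal ratio of the GAPDH control was 24.7, the highest of the 16 arrays. It was 3.49 and 4.81 on chalazal endosperm replicates 2 and 3, and its part in the iqd32 values was not tested. Without the 3 chalazal endosperm arrays, 5 IQD genes were again called higher in the embryo proper.

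IQD18 was above the bound on both embryo arrays and on few others. It measured 353 and 564 in the embryo proper. In the endosperm it was 30.1, 12.5 and 63.1 in the chalazal, 127 and 5.95 in the micropylar and 12.3 and 6.36 in the peripheral region, and only 2 of those 7 values were above the bound. In both seed coat regions all 5 values, 3.31 to 46.6, were at or under the bound, as were both whole seed values. The log2 difference from the endosperm was 2.79 ± 0.59 (adjusted p = 0.00169), and without embryo proper replicate 2 the adjusted p was 0.0885.

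The other 2 calls rested on dim values. IQD22 had 172 and 155 in the embryo proper, and all 7 endosperm arrays, at 2.38 to 48.5, were at or under the bound. With the endosperm values set to their bounds, its mean was at least 1.52-fold higher (adjusted p = 0.00567). The bound of chalazal endosperm replicate 1, 161, was above the embryo value of 155, so this holds for means and not for each array. iqd15 had 498 and 196 in the embryo proper, against 3.18 to 155 in the endosperm, of which 1 of 7 values was above the bound. Its difference was 2.09 ± 0.60 (adjusted p = 0.0186). Neither call held without embryo proper replicate 1 or without replicate 2: the adjusted p then reached 0.119 for IQD22 and 0.378 for iqd15. The iqd15 call was also lost without peripheral endosperm replicate 2 (adjusted p = 0.0549) and with an offset of 1 (0.0825). IQD26 (485 and 488 in the embryo proper, against 11.7 to 291 in the endosperm) had a difference of 1.45 ± 0.54 and adjusted p = 0.0704. It was called higher without median centring (adjusted p = 0.0355). The count for the whole comparison was 3 without embryo proper replicate 1, 2 without replicate 2, and 10 with array weights, all of them IQD genes that were higher. Over all tested probe sets array weights called 2550 higher and 4088 lower, against 1052 higher and 1627 lower without them.

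**Figure D2:**
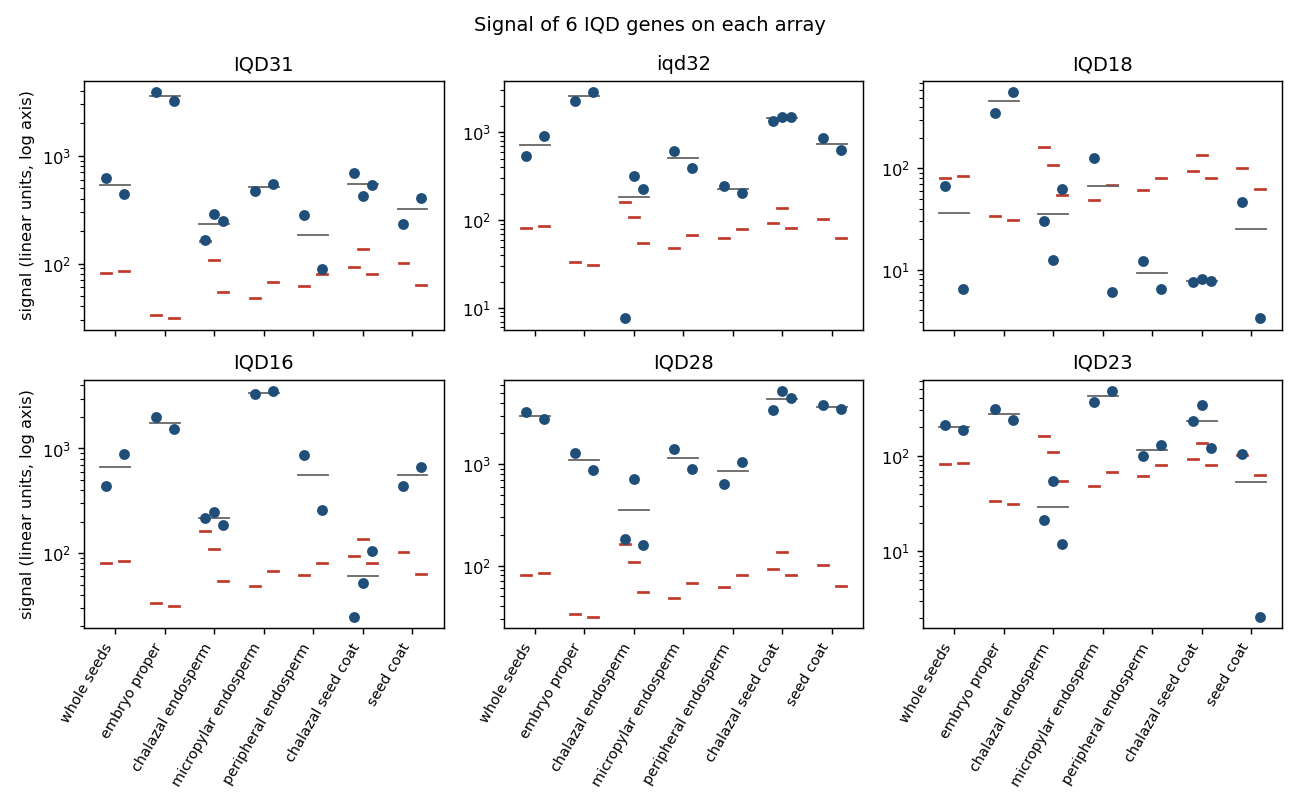
Signal (linear units on a log axis) of 6 IQD genes on each array, by group: blue points are single arrays, grey lines group means, and red ticks the background bound of each array. IQD31 stands at 3236 and 3869 in the embryo proper and at 686 or less elsewhere, IQD16 peaks in the micropylar endosperm, and IQD28 is lowest in the chalazal endosperm.

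The second comparison set the filial endosperm against the maternal seed coats. IQD28, iqd33, iqd32, IQD24 and IQD22 were lower in the mean of the 3 endosperm regions than in the mean of both seed coat regions, and IQD16 was higher. Over all tested probe sets 15.4% were lower and 19.8% higher, so 5 of 14 IQD genes (35.7%) were lower and 1 was higher. No CML gene passed, either way, and none had an unadjusted p under 0.05. The median difference was -0.45 for the IQD genes and 0.06 for the CML genes, against 0.19 for all tested probe sets; without centring it was -0.67, -0.16 and -0.02 in the same order. The seed coat markers BAN and DFR had more signal in the peripheral than in the other endosperm regions, and their part in these differences was not tested.

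IQD28 was above the bound everywhere and highest in the seed coats. It had 183, 708 and 158 in the chalazal endosperm, 1404 and 900.1 in the micropylar endosperm and 641 and 1050.0 in the peripheral endosperm. Against these stood 3439, 5229.6 and 4447 in the chalazal seed coat, with 3825 and 3489 in the seed coat. No endosperm array reached any seed coat array, and the embryo proper, at 1294 and 883, lay among the endosperm values. The log2 difference was -2.35 ± 0.34 (adjusted p = 3.74e-06). Whole seeds had 3238 and 2765, between the embryo and the seed coat values.

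iqd33 was above the bound on every seed coat array and on no endosperm array. It was at or under the bound on all 7 endosperm arrays (7.21 to 39.3) and above it on all 5 seed coat arrays (177, 150.5 and 140.0 in the chalazal seed coat, 165 and 152 for the remaining coat). It was therefore at least 1.53-fold lower in the endosperm (adjusted p = 0.00108). In the embryo proper replicate 1 gave 156 and replicate 2 gave 10.2, so its replicates disagree there. For iqd32 the difference was -1.74 ± 0.44 (adjusted p = 0.00249), with the seed coat values as given above. IQD24 had -1.51 ± 0.46 (adjusted p = 0.0117), with 1 of 7 endosperm values above the bound against 4 of 5 seed coat values. Its chalazal seed coat arrays gave 6.33, 252 and 139, and the call was lost without micropylar endosperm replicate 2 or seed coat replicate 2 (adjusted p up to 0.0963). IQD22 passed too (adjusted p = 0.0338), but all 12 arrays of this comparison were at or under the bound, so no size is given, and the call was lost under 6 of 16 single-array omissions.

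IQD16, the gene of the microtubule-binding protein, ran against this direction. Its endosperm values were 215, 245 and 185 in the chalazal, 3287 and 3532 in the micropylar and 863 and 261 in the peripheral region, against 24.6, 51.9 and 104 in the chalazal seed coat, with 439 and 667 in the seed coat. The log2 difference of endosperm over seed coat was 2.00 ± 0.36 (adjusted p = 6.91e-05), but the arrays overlapped: the seed coat exceeded the chalazal endosperm. The mean hides steps inside both tissues, which the next comparisons take up.

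**Figure D3:**
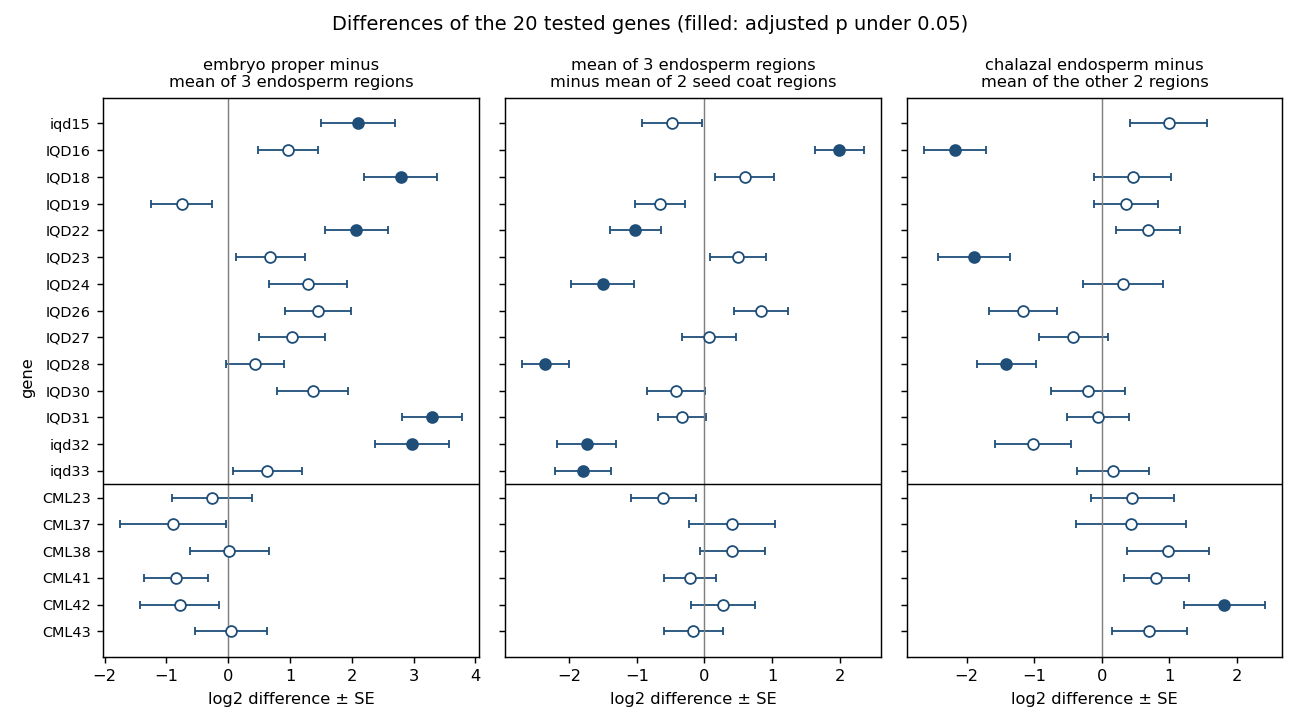
Log2 difference ± SE of each of the 20 tested genes (rows) in 3 comparisons (panels); filled points have an adjusted p under 0.05. In the left panel 13 of 14 IQD points lie right of 0 and 5 are filled; in the middle panel IQD16 is the lone filled point on the right; in the right panel all 6 CML points lie right of 0 and CML42 alone of them is filled.

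Within the endosperm, the chalazal region was set against the average of the peripheral and micropylar regions. Against that average IQD16, IQD23 and IQD28 were lower in the chalazal endosperm and CML42 was higher. This makes 4 of 20 tested genes (20%) where 37.6% of all tested probe sets differed (19.6% higher, 18% lower). In single pairs (limma) all 4 passed against the micropylar endosperm, with adjusted p of 1.28e-05, 0.00162, 0.0185 and 0.0468 in that order. None of them passed against the peripheral endosperm (adjusted p = 0.289, 0.209, 0.0866 and 0.0731). IQD16 had the values given above, a log2 difference of -2.17 ± 0.46 (adjusted p = 0.000443). The peripheral replicate at 261 was near the chalazal values of 185 to 245. On the centred log2 scale of the test the groups overlapped, with 8.26 on that peripheral array and 8.51 on chalazal endosperm replicate 2. IQD23 had 21.2, 55 and 12 in the chalazal endosperm, all at or under the bound, against 368 and 474 in the micropylar and 99.7 and 129.9 in the peripheral endosperm. By means it was at least 1.61-fold lower (adjusted p = 0.00589), although both peripheral values were under the bound of chalazal endosperm replicate 1, 161. IQD28 had -1.42 ± 0.44 (adjusted p = 0.0121), and its chalazal replicate 2, at 708, overlapped with the peripheral endosperm. Its call was lost without chalazal endosperm replicate 1 or 3, micropylar replicate 1 or peripheral replicate 2 (adjusted p up to 0.0905).

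CML42 was the single CML gene that passed a comparison in the series' design. Its protein has been linked to trichome branching and to the dampening of defence against chewing insects. It had 228, 131 and 79.8 in the chalazal endosperm, each above its array's bound, against 42.8 and 8.04 in the micropylar and 12.1 and 56.3 in the peripheral endosperm, each at or under it. It was at least 2.12-fold higher (adjusted p = 0.0193). Elsewhere it was above the bound on a single array, chalazal seed coat replicate 2 at 214, and the other chalazal seed coat arrays gave 2.93 and 2.23. The adjusted p was 0.0523 without median centring of the arrays and 0.0878 with an offset of 1. It reached 0.0838 when micropylar replicate 2, peripheral replicate 1 or chalazal replicate 1 was left out. The differences of all 6 CML genes in this comparison were above 0, from 0.44 to 1.82, with a median of 0.76 against 0.24 for all tested probe sets, and the other 5 did not pass. On these 3 arrays the background bound ran from 54.8 to 161, against 48.2 to 80.3 in the other endosperm regions, and its part in the CML values was not tested.

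Between the micropylar and the peripheral endosperm, 1 of 20 genes differed, where 1.01% of all tested probe sets did (0.816% higher, 0.195% lower). It was IQD16, at 3287 and 3532 in the micropylar against 863 and 261 in the peripheral endosperm, a log2 difference of 2.76 ± 0.60 (adjusted p = 0.0163). The call was lost without either micropylar array or without peripheral replicate 2 (adjusted p up to 0.632), and with an offset of 1 (adjusted p = 0.0834). IQD23, at 368 and 474 against 99.7 and 129.9, did not overlap either, but its difference of 1.65 ± 0.69 did not pass (adjusted p = 0.461).

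Within the maternal tissue, IQD16 and IQD30 were lower in the chalazal seed coat than in the seed coat, 2 of 20 genes (10.8% of all tested probe sets differed, 5.21% higher and 5.64% lower). For IQD16, at 24.6, 51.9 and 104 against 439 and 667, the model's log2 difference was -2.82 ± 0.55 (adjusted p = 0.000642), and the groups did not overlap. The arrays at 24.6 and 51.9 were under their bound, so this is no exact size. It kept its call under each single-array omission. IQD30 had 10.7, 6.27 and 72 in the chalazal seed coat, all at or under the bound, against 518 and 181 in the seed coat, so it was at least 2.70-fold lower (adjusted p = 0.00549). Without seed coat replicate 1 its adjusted p was 0.178. IQD30 was also above the bound in the embryo proper (228 and 254), whole seeds (293 and 268) and the micropylar endosperm (48.9 and 202). In the rest of the endosperm it was above the bound on peripheral replicate 1 (71.2) and on none of the 3 chalazal arrays.

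Whether the chalazal step of the endosperm differed from that of the maternal tissue was tested as an interaction, which 2 of 20 genes passed, IQD23 lower and IQD30 higher. Of all tested probe sets 19.9% passed, 10.7% higher and 9.25% lower. For IQD23 (adjusted p = 0.00176) none of 3 chalazal endosperm arrays and 1 of 2 seed coat arrays was above the bound. For IQD30 (adjusted p = 0.0364) none of the 3 chalazal endosperm and none of the 3 chalazal seed coat arrays was. The steps of both genes therefore have no exact size. In the model the IQD30 step, chalazal region minus the rest, was -0.21 ± 0.55 in the endosperm and -2.73 ± 0.66 in the seed coats. Its positive interaction is thus no rise in the chalazal endosperm. The IQD23 step was -1.89 ± 0.53 in the endosperm and 1.83 ± 0.63 in the seed coats. The IQD30 interaction was lost in 7 of 16 single-array omissions (adjusted p up to 0.240). It was also lost under 5 of 7 processing alternatives: without median centring (adjusted p = 0.0745), with quantile normalisation (0.0773), an offset of 1 (0.0902), no filter (0.0586) or array weights (0.0598). For IQD16 the interaction did not pass (adjusted p = 0.573).

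IQD19 passed the F test and none of the 7 comparisons of the design; among single pairs of compartments it passed 2, embryo proper against seed coat (adjusted p = 0.0125) and micropylar endosperm against seed coat (adjusted p = 0.0328). It had 127 and 92.3 in the seed coat and 90.8 and 129 in whole seeds, each above the bound, against 62.6 or less on all 12 arrays of the other compartments. Its adjusted p of 0.0468 over compartments was lost under 11 of 16 single-array omissions. Chalazal seed coat against seed coat did not pass (adjusted p = 0.0828). IQD27 had values above the bound in the embryo proper (98.2 and 84.7) and on peripheral endosperm replicate 1 (73.9), and nowhere else.

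Across the 16 arrays some IQD pairs moved together, as a description of arrays that share tissue, scaling and background. Pearson's r was 0.73 for IQD23 with IQD26 (Spearman 0.63), 0.72 for IQD28 with iqd33 (0.71), 0.72 for IQD18 with IQD31 (0.35) and 0.70 for IQD31 with iqd32 (0.69). For IQD18 with IQD31 the rank correlation was thus well below Pearson's r. IQD19 ran opposite to IQD26, at -0.68 (Spearman -0.80). The median over the 91 IQD pairs was 0.22, and over the 15 CML pairs it was 0.14. The positive pairs named are the highest of the 91. Correlations among other probe sets were not computed, so these values are no result about the family.

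The CML genes are described here by their values, since most were at or under the bound. CML23, whose product acts with a close relative in nitric oxide levels and flowering, was above it on 2 arrays, at 189 on whole seed replicate 1 and at 269.6 on chalazal seed coat replicate 2. CML41, known from callose control at plasmodesmata during defence, was above it on 4 arrays and never exceeded 90.2. CML43, linked to immunity, was above it on 4 arrays, 2 of them the embryo proper (43.5 and 39.2), whose bound is the lowest. CML38, which responds to low oxygen, had 56.6 and 58.1 in the embryo proper and 647 and 139.9 in whole seeds, and its compartment values ran from 3.09 to 184. CML37, linked to jasmonate defence, was the most often measured, above the bound on 11 of 16 arrays, and in every group at least 1 array was above it. None of these 5 passed a comparison under the main settings, although CML38 did so for whole seeds under several others.

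Whole seeds were compared with the mean of the 6 compartments. None of the 20 genes passed (limma), where 3.57% of all tested probe sets did (2.64% higher, 0.935% lower). At an unadjusted p under 0.05 there were 2 of the 20 genes and 3166 of the 19475 tested probe sets. The mean of 18 of the 20 genes lay within the range of its compartment means, and 82.6% of all tested probe sets did. The exceptions were CML37 and CML38. CML37 had 2811 on whole seed replicate 1 and 29.8 on replicate 2, while its 14 compartment values lay between 13.4 and 366. Without replicate 2 the model called CML37 higher in whole seeds (adjusted p = 0.00740), but whole seeds are then the 1 array at 2811, assumed to vary like the other groups. The gap between both whole seed arrays was 5.64 on the log2 scale, and 0.0103% of all tested probe sets had a gap of that size or more. CML23 (189 and 8.85, a gap of 2.57) and CML38 (647 and 139.9, a gap of 2.07) were higher on replicate 1 too, gaps that 0.858% and 2.72% of all tested probe sets reached. The largest gap among the IQD genes was 1.48, for IQD18 at 66.4 and 6.42, which are both under the bound. CML38 had a difference of 1.89 ± 0.60 from the compartments (adjusted p = 0.0847), and this was past the threshold without median centring (adjusted p = 0.0319), with array weights (0.0282), with the replicate block (0.0479) and without the chalazal endosperm arrays (0.0458).

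**Figure D4:**
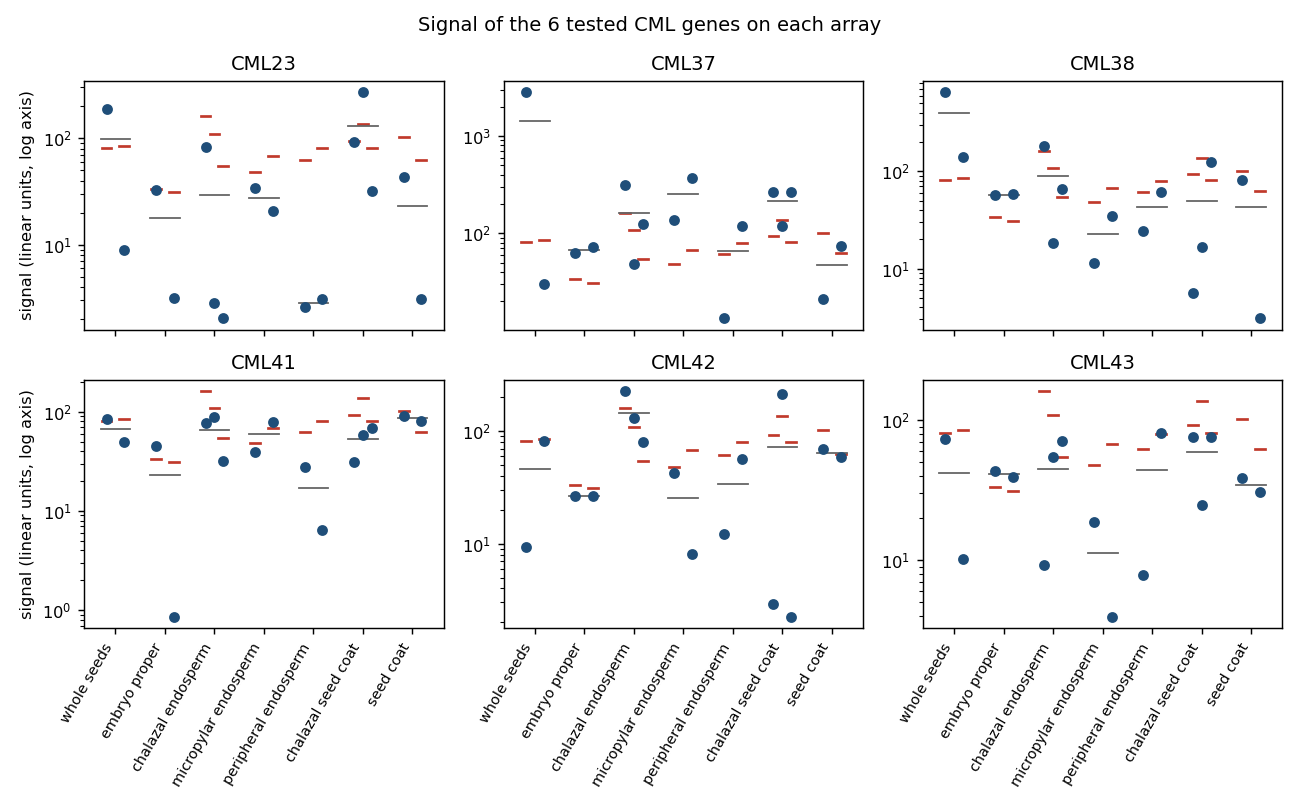
Signal (linear units on a log axis) of the 6 tested CML genes on each array, by group: blue points are single arrays, grey lines group means, and red ticks the background bound of each array. Most points lie at or under the ticks; CML37 has 2811 on 1 whole seed array and 29.8 on the other, and the 3 chalazal endosperm points of CML42 lie above their ticks.

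Taken pair by pair, a choice made after the values were seen, the 20 genes gave 59 calls in 300 tests over the 15 pairs of compartments, 56 of them IQD genes and 3 CML42. The embryo proper differed from the peripheral endosperm in 4 genes (20%, against 5.72% of all tested probe sets), from the micropylar endosperm in 2 (10%, against 2.78%) and from the seed coat in 7 (35%, against 18.4%). From the chalazal endosperm it differed in 9 (45%, against 41.3%), which were 8 of the 14 IQD genes and 1 of the 6 CML genes. From the chalazal seed coat it differed in 6 (30%, against 26.3%), all of them IQD genes. The percentages of this paragraph pool both families, so they are not those of the IQD genes alone. The CML42 calls were the chalazal endosperm against the embryo proper, the micropylar endosperm and the chalazal seed coat. In the remaining pairs the share of the 20 genes was at or below that of all tested probe sets, except for the micropylar endosperm against the seed coat, with 4 genes (20%, against 17.4%), and against the peripheral endosperm, given above. The chalazal endosperm differed from the micropylar endosperm in 4 genes (20%, against 29.7%), from the chalazal seed coat in 6 (30%, against 35%) and from the seed coat in 5 (25%, against 35.6%). Against the chalazal seed coat, 3 genes differed in the micropylar endosperm (15%, against 22.9%) and 3 in the peripheral endosperm (15%, against 24.9%), and 3 differed between the peripheral endosperm and the seed coat (15%, against 17.9%). The chalazal endosperm differed from the peripheral endosperm in 0 of 20 genes, where 29.5% of all tested probe sets differed. At an unadjusted p under 0.05 there were 3 of the 20, a threshold at which all tested probe sets were not counted for this pair. The smallest adjusted p was 0.0731. For IQD16 the micropylar endosperm exceeded the chalazal seed coat by a log2 difference of 5.51 ± 0.55 (adjusted p = 1.60e-08), with 1 of 3 chalazal seed coat arrays above the bound.

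**Figure D5:**
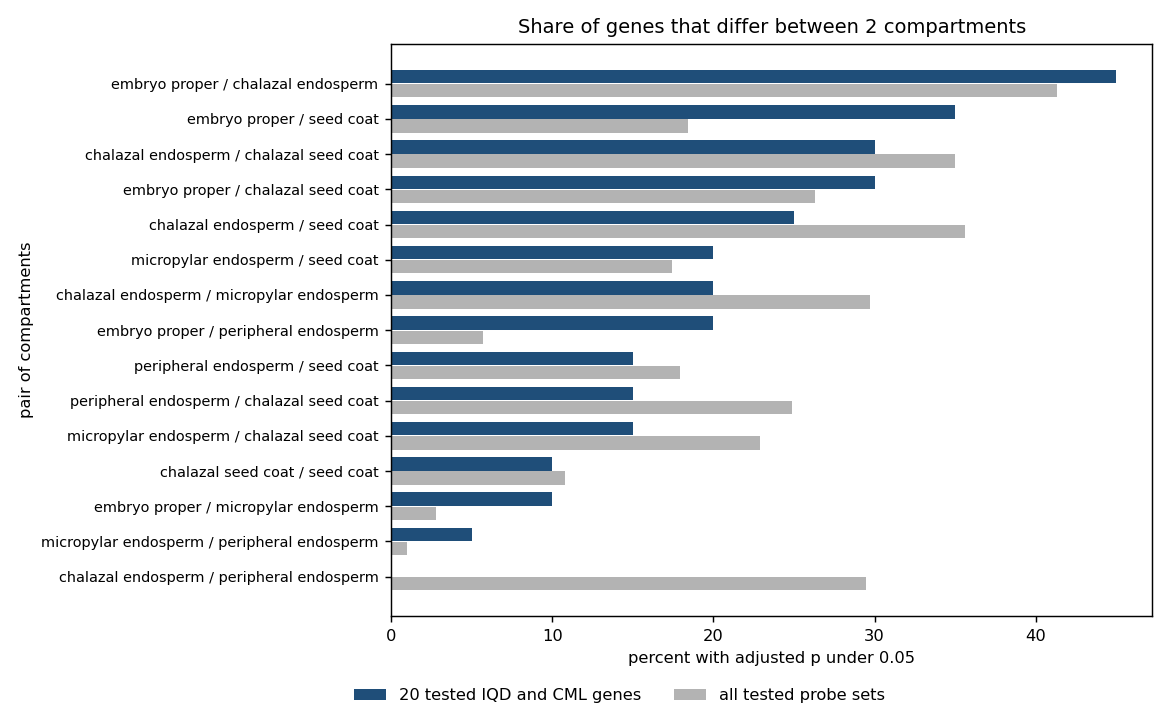
Percent of genes with an adjusted p under 0.05 in each pair of compartments (rows): blue bars are the 20 tested IQD and CML genes, grey bars all tested probe sets. The embryo proper against the peripheral endosperm gives 20% against 5.72%, and the chalazal against the peripheral endosperm 0% against 29.5%.

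Few other calcium genes were named in the annotation, which leaves many probe sets of the array without a name. Of the channels and carriers that move calcium, only glutamate receptor-like genes were named: 7, of which GLR3.6, GLR3.3 and GLR1.4 were tested, and none of these passed the F test or any comparison. The smallest adjusted p over compartments was 0.283, for GLR3.6, whose unadjusted p was 0.0378 between the chalazal part and the rest of the seed coat. Of calmodulin-binding regulators and lumenal calcium binders, CRT1b was named, a calreticulin that binds calcium in the endoplasmic reticulum. CRT1b had 1933 and 3055 in the embryo proper, against 4110.0, 5905 and 7562 in the chalazal, 3523 and 5420.2 in the micropylar and 6941 and 6004 in the peripheral endosperm. It was lower in the embryo proper by -1.43 ± 0.36 (adjusted p = 0.00749), with no overlap, while 5 IQD genes were higher in the same comparison. Without embryo proper replicate 1 its adjusted p was 0.261. CRT1b also passed the F test (adjusted p = 0.00164) and the interaction (1.57 ± 0.53, adjusted p = 0.0362), the interaction being lost under 3 of 7 processing alternatives and 8 of 16 single-array omissions. No gene of the last list, other calcium sensors and targets of the kinases, was named.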

How the data were processed

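The authors processed the arrays with GCOS, per the submitters' processing notes; no version or setting is known here. What the authors deposited is an intensity (GCOS signal, linear), with 1 value per probe set and array for 22810 probe sets, 64 of them controls. No coordinates are printed, since no build is named. All 22 members matched a locus in the RefSeq table of TAIR10.1. Depth does not apply to arrays; the number of arrays limits the precision.

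Values were taken as log2(signal + 30.2), the offset being the 25th percentile of all values, and centred on each array's median. Tests covered the 19475 of 22746 Arabidopsis probe sets that were above the 40th percentile of 2 or more arrays. A limma 3.58.1 model in R 4.3.3 with 7 group means and an intensity trend gave all p-values, two-sided unless a compartment was tested as highest or lowest, with Benjamini-Hochberg adjustment over all tested probe sets. Differences are log2 of the group named first over the group named second. "At least" folds compare mean log2 values, with each low-side value raised to its array's background bound. They make no allowance for the spread between arrays, and single high-side arrays can lie under a low-side bound. Scripts were tested on simulated data. Members, lists and tests were chosen with earlier results of these data known. Genes named were those with the smallest p over compartments in each family and the largest passing differences; the other members are named to account for each. Sequences are not used here.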

Additional observations from a re-analysis of the deposited data

Results flagged for a closer look

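The chalazal difference itself differed between the endosperm and the seed coat for 2 IQD genes, by a test of the interaction (limma, adjusted over all tested probe sets; 19.9% of all passed). For IQD23 the difference of differences was -3.72 ± 0.82 (adjusted p = 0.00176). This is the model's value and no exact size, since none of 3 chalazal endosperm arrays and 1 of 2 seed coat arrays was above the bound. The step within the seed coats did not pass alone (adjusted p = 0.0623). IQD23 had 233, 341 and 119 in the chalazal seed coat, against 105 and 2.06 in the seed coat, so the last array weighs on the value. The adjusted p stayed between 0.000995 and 0.0473 whichever array was left out.

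For IQD30 the difference of differences was 2.53 ± 0.86 (adjusted p = 0.0364), again with no exact size, since none of the 3 chalazal endosperm and none of the 3 chalazal seed coat arrays exceeded its bound. The model's chalazal step of IQD30 was -0.21 ± 0.55 in the endosperm (limma, adjusted p = 0.791) and -2.73 ± 0.66 in the seed coats. The interaction call of IQD30 was lost in 7 of 16 single-array omissions (adjusted p up to 0.240) and under 5 of 7 processing alternatives (adjusted p up to 0.0902). With 2 or 3 arrays in a group, no group was large enough to be screened for single arrays that stand apart.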

How the results depend on the processing

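The settings tried were no median centring, quantile normalisation, an offset of 1, no filter on dim probe sets, array weights, a replicate block, the mean of probe sets per gene, and each array left out in turn; leaving out the 3 chalazal endosperm arrays, and the tests of compartment pairs, were added after seeing the data. Each of the 22 genes had 1 probe set, so the mean of probe sets left their values unchanged. That setting could move only the shared estimate of spread and the adjustment of p. No called difference of a named gene changed sign under these settings. The number of genes called for whole seeds, 0 as reported, was 1 without centring, with array weights, with the replicate block and without the chalazal endosperm arrays. For the interaction it was 2 as reported, 1 with quantile normalisation, an offset of 1, no filter or array weights (IQD30 lost in each, and also without centring), and 4 with the replicate block. Micropylar against peripheral endosperm gave 0 with an offset of 1, against 1. Array weights gave 10 for the embryo proper, against 5, while calls over all tested probe sets were 2550 higher and 4088 lower, against 1052 and 1627. They also gave 1 gene highest in 1 compartment, against 0. Without the chalazal endosperm arrays 1 gene was lowest in 1 compartment, against 0. The cause of these shifts was not tested.

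With single arrays left out, the counts ran from 2 to 6 for the embryo proper, 4 to 7 for endosperm against seed coats, 3 to 5 for the chalazal endosperm, 0 to 1 for micropylar against peripheral endosperm, 2 to 3 within the seed coats, 0 to 1 for whole seeds, 1 to 4 for the interaction, 9 to 12 over compartments, 0 for highest and 0 to 1 for lowest in 1 compartment, and 37 to 62 over the pairs. CML43 did not pass the filter on dim probe sets without chalazal endosperm replicate 3 or peripheral endosperm replicate 2, and has no value there.

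Scaling moved the balance over all tested probe sets. For the embryo proper 1052 were higher and 1627 lower as reported, 1716 and 1110 without centring, and 1343 and 1104 with quantile normalisation, while the median of all differences was -0.01 and -0.07 under these, and -0.29 as reported. For endosperm against seed coats the counts were 3852 and 2996 as reported, 2886 and 3650 without centring, and 3253 and 3242 with quantile normalisation. The IQD genes kept 5 lower and 1 higher in that comparison under both.

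No pairing of arrays by replicate number was seen: over 43 same-numbered pairs the correlation of deviations from group means ran from -0.044 to 0.206. Only 1 pair was over 0.1, and 8 of 16 arrays correlated best with an array of their own number. In groups of 2 arrays the deviations mirror each other, so these pairs are not independent. Whether same-numbered arrays shared plants or handling cannot be told from this. The replicate block left the embryo proper at 5 calls. Dim values limit the CML results: with 2 or 3 arrays a group and 33 of 112 CML values above the bound, differences in CML genes may have gone undetected.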
